A study of Mus musculus with 29 samples.

Results

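The 10 genes described here are Fasn, Acaca, Acly, Scd1, Elovl6, Srebf1, Me1, Mlxipl, Thrsp and Pnpla3, which encode enzymes and regulators of de novo fatty acid synthesis. They were taken as a list of gene symbols, matched to the Ensembl identifiers of the count table, and all 10 were found among its 56748 genes and passed the filter on low counts, as did 12353 genes in all. The rule that lists them uses no measured value.

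RNA was sequenced from the aortic arch, the curved first part of the aorta, of mice with a DNA repair defect and of their wildtype littermates. Ercc1Δ/− mice carry a loss-of-function allele together with an allele for a truncated form of Ercc1, a subunit of a DNA repair endonuclease, in every cell of the body, and they age prematurely. All mice were F1 hybrids of C57BL6J and FVB, so littermates (WT, Ercc1+/+) share that background. They were housed singly, and the vessels were flushed with saline before the arch was taken. At 6 weeks of age on ad libitum (AL) food there were 5 WT and 5 Ercc1Δ/− samples. At 22 weeks there were 4 WT and 4 Ercc1Δ/− samples on AL and 5 of each genotype on dietary restriction (DR), in which food was reduced from 7 weeks of age until it reached 30% restriction at 9 weeks. Each sample came from 1 mouse, 17 male and 11 female in all, and every group held both sexes. Sample 003, a female WT mouse of 22 weeks on AL with 400410 counts, was left out.

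De novo lipogenesis turns surplus carbon from glucose into fatty acids. Acly (ATP citrate lyase) splits citrate into acetyl-CoA, Acaca (acetyl-CoA carboxylase 1) makes malonyl-CoA from it, Fasn (fatty acid synthase) joins these units into palmitate with NADPH that Me1 (malic enzyme) helps to supply, Elovl6 lengthens palmitate and Scd1 (stearoyl-CoA desaturase 1) inserts a double bond. The genes are switched on by insulin through Srebf1, which encodes SREBP1, and by sugar through Mlxipl, which encodes ChREBP. Thrsp (Spot 14) and Pnpla3, a lipid droplet protein, are induced together with them. Fat cells and hepatocytes are the known sites of the pathway, and the arch is surrounded by perivascular fat that resembles brown fat in mice.

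Sequence from RefSeq was at hand for 9 of the 10 genes, in 13 windows of 250 bases before an annotated start, on GRCm38.p6. Scd1 is the gene without a window. The windows below belong to 4 of the 5 genes that followed the fat markers most steeply (Fasn, Thrsp, Pnpla3, Elovl6) and to 3 of the 4 that differed between groups once fat was in the model (Elovl6, Mlxipl, Pnpla3), as described further on. The fourth of these, Acaca, has a window that holds none of the motifs searched and is not shown. That window (chr11:84195188-84195437) appears to lie inside the gene, which runs from 84020476 to 84292477 on GRCm39. The builds differ, so its exact place was not settled, and it may not be the promoter at the 5′ end. They are written 5′ to 3′ on the strand of the gene, in lower case, with 4 kinds of motif in capitals where either strand holds one. The CCAAT box is spelled by its name, the GC box is GGGCGG, the E-box that carbohydrate-responsive factors bind as a pair is CACGTG, and the core of the sterol element that SREBP proteins bind is TCACNCCAC.
Fasn (chr11:120824548-120824797, minus strand): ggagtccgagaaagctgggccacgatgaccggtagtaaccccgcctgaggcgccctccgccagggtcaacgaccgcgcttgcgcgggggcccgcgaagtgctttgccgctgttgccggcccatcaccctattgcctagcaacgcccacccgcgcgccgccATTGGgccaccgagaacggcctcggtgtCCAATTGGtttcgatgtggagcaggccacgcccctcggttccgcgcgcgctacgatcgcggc
Thrsp (chr7:97417551-97417800, minus strand): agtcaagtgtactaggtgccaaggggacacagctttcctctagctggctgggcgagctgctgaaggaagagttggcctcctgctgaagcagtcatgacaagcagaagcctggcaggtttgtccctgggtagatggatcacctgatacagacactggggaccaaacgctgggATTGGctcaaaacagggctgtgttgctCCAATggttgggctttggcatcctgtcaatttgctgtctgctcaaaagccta
Pnpla3 (chr15:84167566-84167815, plus strand): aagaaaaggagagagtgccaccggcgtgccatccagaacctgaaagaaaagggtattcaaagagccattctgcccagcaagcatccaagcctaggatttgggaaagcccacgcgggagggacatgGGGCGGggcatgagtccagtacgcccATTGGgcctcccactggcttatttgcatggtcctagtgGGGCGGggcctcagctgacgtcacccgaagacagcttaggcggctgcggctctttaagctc
Elovl6 (chr3:129532136-129532385, plus strand): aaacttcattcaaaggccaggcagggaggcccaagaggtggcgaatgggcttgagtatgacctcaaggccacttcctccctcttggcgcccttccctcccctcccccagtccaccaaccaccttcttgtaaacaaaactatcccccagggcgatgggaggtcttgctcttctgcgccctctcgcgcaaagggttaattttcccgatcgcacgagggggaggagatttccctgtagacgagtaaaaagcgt
Mlxipl, upstream start (chr5:135089640-135089889, plus strand): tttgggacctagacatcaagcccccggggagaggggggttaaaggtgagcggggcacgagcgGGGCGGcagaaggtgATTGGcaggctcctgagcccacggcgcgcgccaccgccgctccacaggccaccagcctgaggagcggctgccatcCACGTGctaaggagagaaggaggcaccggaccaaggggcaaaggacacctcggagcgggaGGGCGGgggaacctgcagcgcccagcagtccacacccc
Mlxipl, downstream start (chr5:135106641-135106890, plus strand): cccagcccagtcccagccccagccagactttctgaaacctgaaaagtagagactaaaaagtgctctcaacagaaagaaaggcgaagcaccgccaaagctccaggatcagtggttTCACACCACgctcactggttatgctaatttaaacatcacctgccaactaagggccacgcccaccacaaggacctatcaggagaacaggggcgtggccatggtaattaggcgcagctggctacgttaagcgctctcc
The CCAAT box was found in 7 of the 13 windows, which belong to 6 genes, and in 33.8% of all 32851 mouse promoter windows of this length. The GC box was found in 6 of the 13 windows, of 5 genes, and in 32.7% of all windows. Of the 13 windows, only the upstream window of Mlxipl held the E-box, which 6.02% of all windows held, and only its downstream window held the sterol element core, which 1.05% of all windows held. In the Fasn window a pair of CCAAT boxes on opposite strands overlap each other. The windows of Elovl6 and of Acaca held none of the 4 motifs, and that of Acaca may not lie at the 5′ end of the gene. A match in these windows is a description of letters, not a measured binding site.

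Counts on genes ran from 921167 to 9616382 per sample with a median of 3256708, and they were lower in Ercc1Δ/− mice on DR (921167 to 2572523) than in WT mice on DR (2660422 to 6124471). Levels are given as CPM, counts scaled to a common library total, with libraries adjusted by the trimmed mean of M-values (TMM). Ercc1 itself ran from 14.1 to 36.8 CPM in WT and from 8.42 to 15.2 CPM in Ercc1Δ/− samples of 6 weeks, which overlap, whereas at 22 weeks all WT samples (25.5 to 35.7 CPM over both diets) lay above all Ercc1Δ/− samples (7.62 to 21.2 CPM). The tissue carried the markers of its label. The 10 smooth muscle markers summed to between 18018 and 45695 CPM, and 12 white fat markers to between 1370 and 3536 CPM in every one of the 28 samples. The 8 brown fat markers summed to between 180 and 1614 CPM. Hepatocyte markers summed to at most 178 CPM, with Ttr at 0 counts in all samples.

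Per kilobase of exon, Scd1 and Fasn were the most abundant of the 10. Scd1 had a median of 250 CPM per kilobase over the 28 samples, Fasn 154, Thrsp 86.8, Me1 31.2, Acly 22.6, Srebf1 16, Acaca 10.5, Mlxipl 9.21, Elovl6 6.48 and Pnpla3 1.23. Neighbours in this order overlap widely, since Fasn alone ran from 32.5 to 568 CPM per kilobase and Scd1 from 43.8 to 793. The divisor is exon length although reads were counted over gene bodies, so the order may also depend on reads from introns. The counting was over whole gene bodies without a stated strand setting. Of the 10 genes 8 overlap another annotated gene (all but Fasn and Thrsp), such as Tada2a at Acaca or Rai1 at Srebf1. Reads ambiguous between genes had a summary line of their own, with 1.4% to 1.82% of a sample. How far the overlaps changed the counts of these genes was not tested.

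The main feature of these genes was their spread between mice of the same group. Fasn (ENSMUSG00000025153, GRCm39 chr11:120696672-120715995, minus strand) ran from 381 to 6652 CPM, a 17.5-fold range. In WT mice of 6 weeks it had 413, 2363, 1510, 1145 and 2514 CPM, and in Ercc1Δ/− mice of that age 1888, 481, 406, 1590 and 5690 CPM. At 22 weeks on AL it had 2292, 2001, 875 and 1505 CPM in WT and 1940, 381, 2479 and 1302 CPM in Ercc1Δ/− mice. The ranges thus lay over each other at both ages, and the highest and lowest mice of a genotype differed far more than the genotypes did. On DR it had 831, 6652, 2072, 1710 and 3882 CPM in WT and 1579, 3631, 3517, 1065 and 2825 CPM in Ercc1Δ/− mice.

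**Figure D1:**
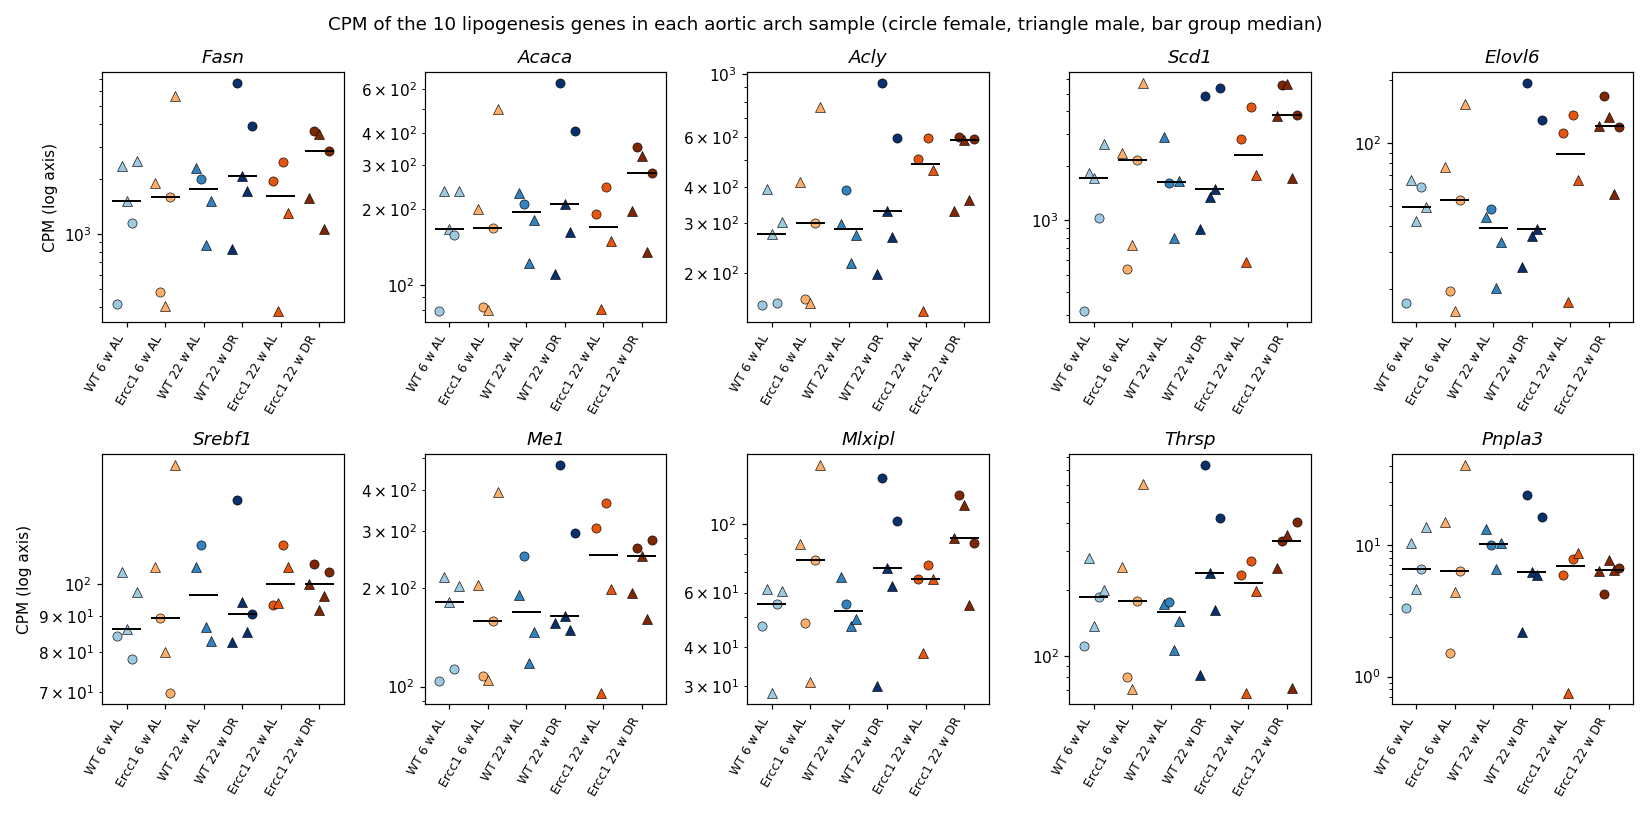
CPM of each gene in each sample on a log axis, by group, with circles for female and triangles for male mice and a bar at the group median. Ranges of the groups overlap for all 10 genes, and Fasn, for example, runs from 406 to 5690 CPM within the Ercc1Δ/− mice of 6 weeks.

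Scd1 ranged 18.1-fold over the 28 samples, Elovl6 12.3-fold, Thrsp 10.8-fold, Acaca 7.97-fold, Acly 6.34-fold, Mlxipl 5.4-fold and Me1 4.97-fold. Pnpla3 ranged 53.3-fold, from 0.752 to 40.1 CPM, but on only 1 to 136 counts per sample. Srebf1, the regulator, stood apart with a 2.12-fold range from 69.9 to 148 CPM. The same few mice were extreme for many of the genes. Sample 017, a female WT mouse on DR, was the highest for Fasn, Acaca, Acly, Elovl6, Me1 and Thrsp, and sample 027, a male Ercc1Δ/− mouse of 6 weeks, was the highest for Scd1, Srebf1, Mlxipl and Pnpla3. Sample 013, a male Ercc1Δ/− mouse of 22 weeks on AL, was the lowest for Fasn, Acly, Me1, Thrsp and Pnpla3.

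The genes accordingly rose and fell together. Over the 28 samples the log2 CPM of Fasn and Acaca had a Pearson correlation of 0.985, Acly and Me1 0.958, Thrsp and Acaca 0.937, and Scd1 and Elovl6 0.929. Srebf1 was the least alike, with correlations from 0.562 (with Scd1) to 0.742 (with Me1). These correlations describe points that share a library and a piece of tissue. Outside the list, the genes most like Fasn were Tkt (transketolase of the pentose phosphate pathway, 0.945), Slc25a1 (the mitochondrial citrate carrier, 0.921), Acacb (acetyl-CoA carboxylase 2, 0.912), Nat8l (0.899) and Pcx (pyruvate carboxylase, 0.894). For the mean of the standardized values of all 10 genes they were Tkt (0.974), Slc25a1 (0.959), Acacb (0.933), Acss2 (an acetyl-CoA synthetase, 0.932) and Nat8l (0.93).

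How far this spread went with the fat in a sample was measured with a fat score, the mean log2 CPM of the 19 white and brown fat markers that passed the filter (such as Adipoq, Plin1, Cidea and Ucp1), none of which is among the 10 genes. The score ran from 4.34 in sample 013 to 6.7 in sample 027. It was 5.63 ± 0.33 in WT and 5.49 ± 0.84 in Ercc1Δ/− mice of 6 weeks (SD, n = 5 each), 5.29 ± 0.24 in WT and 5.54 ± 0.86 in Ercc1Δ/− mice of 22 weeks on AL (SD, n = 4 each), and 5.41 ± 0.93 in WT and 5.69 ± 0.59 in Ercc1Δ/− mice on DR (SD, n = 5 each). In 2-sided exact permutation tests of the 7 pairs of groups, the smallest p was 0.119 (WT, 22 against 6 weeks, lower by a mean of 0.34) and the adjusted p-values ran from 0.833 to 0.952, where the design allowed p-values down to 0.0079, or 0.029 for 4 against 4. Differences within groups were larger, such as 4.42 to 6.64 among the WT mice on DR. At 22 weeks on AL, the brown markers had a median sum of 353 CPM in WT and 901 CPM in Ercc1Δ/− mice. On DR these medians were 410 and 985 CPM. For the white markers they were 1719 and 2022 CPM on AL and 1836 and 2621 CPM on DR. Single markers in the score did differ between groups without the fat score in the model. Lep, which encodes the hormone leptin, was lower on DR in WT mice (log2 difference -3.09, standard error 0.39, edgeR adjusted p = 7.64e-05), and Plin4 was higher on DR in Ercc1Δ/− mice (0.65, standard error 0.12, edgeR adjusted p = 0.00631). Between genotypes at 22 weeks on AL, Dio2 was higher (1.14) and Plin4 (-0.48) and P2rx5 (-0.52) lower, and on DR Dio2 was higher (1.06) and P2rx5 lower (-0.76).

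With group and sex in the model, all 10 genes rose with the fat score in edgeR's quasi-likelihood test over the 28 samples, where 7.01% of the 12353 tested genes rose. Pnpla3 had a slope of 1.59 on the log2 scale per unit of the score (standard error 0.14), which was the 5th highest of all tested genes. Fasn had 1.497 (standard error 0.18), Scd1 1.49 (0.19), Elovl6 1.41 (0.14) and Thrsp 1.34 (0.13), at ranks 14, 15, 23 and 36. These 5 genes therefore changed by 2.53-fold (Thrsp) to 3.02-fold (Pnpla3) per unit of a score that spanned more than 2 units. Acaca followed with 1.12 (0.11), Acly with 0.94 (0.13), Mlxipl with 0.84 (0.07) and Me1 with 0.78 (0.12). The edgeR adjusted p-values of these 9 genes ran from 2.97e-11 (Mlxipl) to 5.03e-05 (Me1). Srebf1 rose the least, with 0.26 (0.06) at rank 1118 and an edgeR adjusted p of 0.00297. It was no longer called without sample 027 (slope 0.18, edgeR adjusted p = 0.179). In bulk tissue, fewer cells of a type and less RNA per cell cannot be told apart, so a slope does not say in which cells a gene was expressed.

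**Figure D2:**
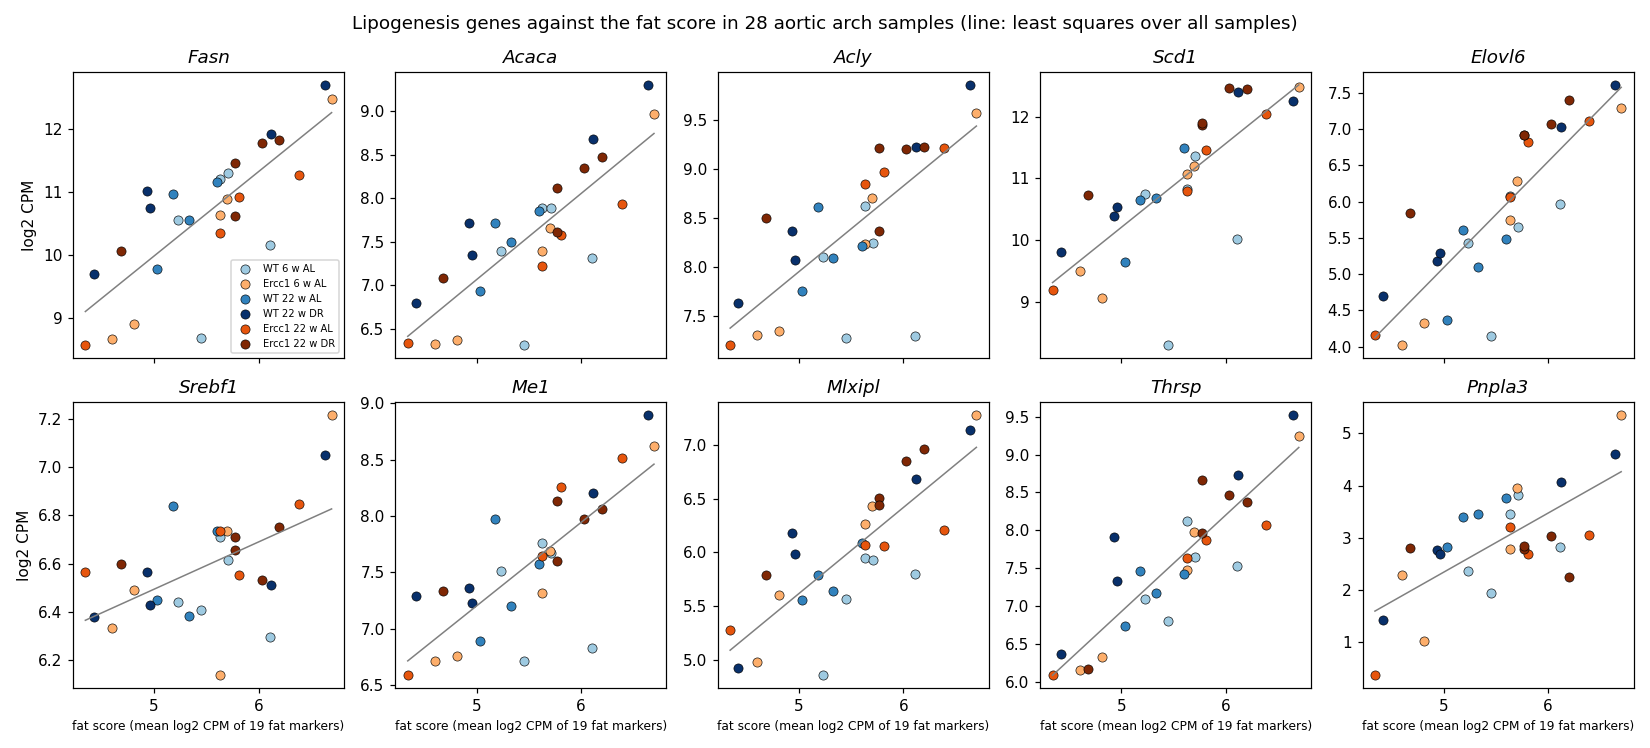
Log2 CPM of each gene against the fat score of the sample, coloured by group, with the least squares line over the 28 samples. Scores run from 4.34 to 6.7, and all 10 genes rise with the score. The lines leave out group and sex, so their slopes differ from those of the model (1.59 for Pnpla3 and 0.26 for Srebf1).

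The slopes were seen within parts of the series, chosen after the data were seen. Over the 14 Ercc1Δ/− samples all 10 genes rose (4.73% of all tested genes rose), and over the 17 males all 10 rose (3.72% of all genes). In the 18 AL samples 9 rose (5.04%), all but Srebf1, in the 10 DR samples 7 (2.74%) and in the 10 samples of 6 weeks 7 (3.76%). Over the 14 WT samples 5 rose, namely Acaca, Elovl6, Mlxipl, Thrsp and Pnpla3 (3.26% of all genes), and over the 11 females Fasn, Acaca, Acly, Elovl6 and Mlxipl rose (1.53%). Fasn had a similar slope in WT mice (1.48, standard error 0.40, adjusted p = 0.113) and in Ercc1Δ/− mice (1.55, standard error 0.14, edgeR adjusted p = 1.81e-05). Whether slopes differed between genotypes or sexes was not tested.

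Pathway lists around the 10 genes, written with earlier results of these data known, showed where the fat score went with other lipid genes, and their counts stand beside the 7.01% of all tested genes that rose. The median slope of the 10 genes was 1.23, against a median of -0.01 over all tested genes. All 12 genes that supply acetyl-CoA and citrate rose, among them Mpc2 of the mitochondrial pyruvate carrier (0.76), Pdhb (0.82) and Dlat (0.73) of pyruvate dehydrogenase, and citrate synthase Cs (0.60). Of 10 genes of NADPH supply 7 rose, led by p by Taldo1 (0.61), Pgd (0.66) and Tkt (1.04) of the pentose phosphate pathway and G6pdx (0.39). Genes that spend fatty acids rose too, 19 of 21 in the list of fatty acid oxidation with Acaa2 (0.94) and Hadha (0.81), as did 10 of 12 of fatty acid uptake and its regulators with Pparg (1.16), the master regulator of fat cells, and Lpl (1.00). Of 12 tested genes of triglyceride synthesis 6 rose, such as Dgat2 (1.14), and Lpin3 fell (-0.28), while 7 rose of 10 of lipolysis and droplets, such as the lipase gene Pnpla2 (0.81).

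Of regulators and sterol genes smaller shares rose, again beside 7.01% of all genes. Of 21 genes of the SREBP, LXR and ChREBP regulators 4 rose (Lpin1, Insig1, Ppargc1b and Nr1h3, slopes from 0.40 to 0.96) and 1, Srebf2, fell (-0.24). Of 20 genes of cholesterol synthesis 2 rose, Pmvk (0.31) and Fdft1 (0.21), and of 19 insulin and AMPK genes 3 rose, including the insulin-responsive glucose transporter Slc2a4 (0.71). Of 14 other elongases and desaturases 4 rose, with Elovl3 (1.70) at the top, and 1 fell.

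**Figure D3:**
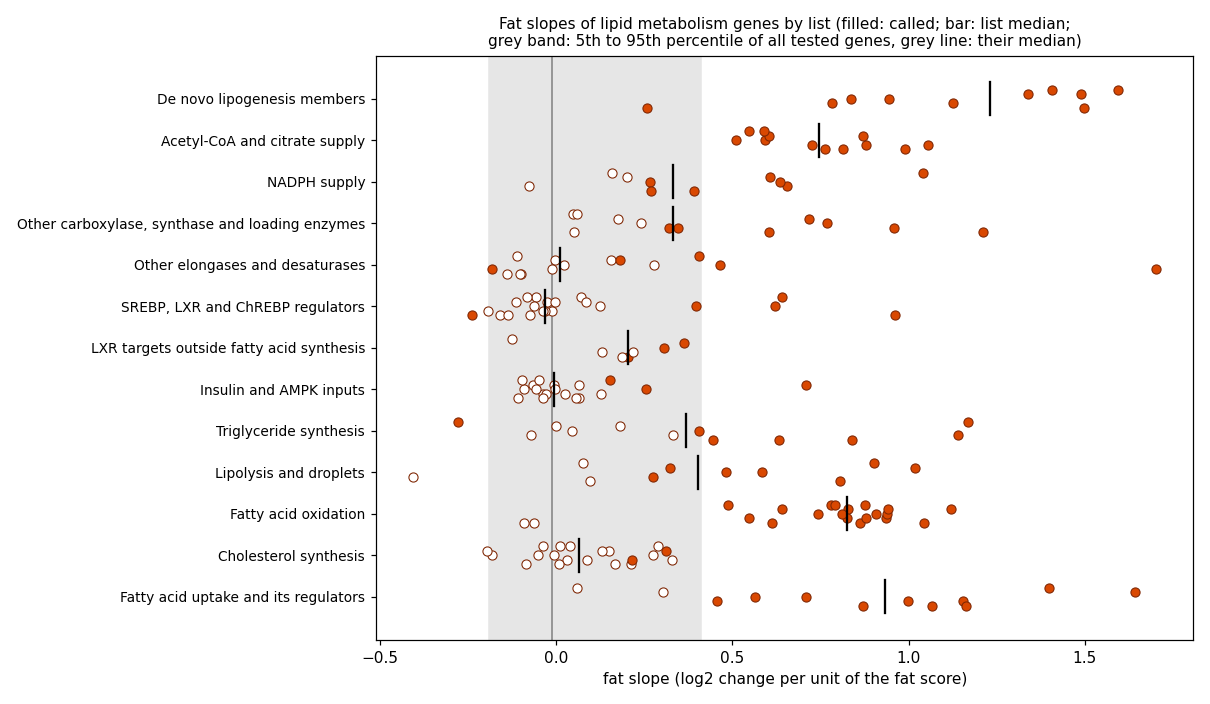
Slope on the fat score of each gene by pathway list, with called genes filled, the list median as a bar and the 5th to 95th percentile of all tested genes (-0.19 to 0.41) as a grey band. The 10 lipogenesis genes have the highest median of the lists shown (1.23), and only Srebf1 lies inside the band.

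The comparisons that the design implies are genotype, age and diet, with group and sex in the model, AL samples only for genotype and age and samples of 22 weeks only for diet. A gene was called where it changed by 1.2-fold or more with an adjusted p (Benjamini-Hochberg, over all tested genes) no higher than 0.05. None of the 10 genes was called in any of the 7 comparisons of 2 groups or the 2 interactions by edgeR, and none by DESeq2. In the 7 comparisons of 2 groups the CPM ranges overlapped for all 10 genes, where 2.87% (genotype at 6 weeks), 18.7% (genotype at 22 weeks on AL), 3.83% and 6.82% (age in WT and Ercc1Δ/− mice), 5.12% and 5.02% (DR in WT and Ercc1Δ/− mice) and 8.32% (genotype on DR) of all tested genes did not overlap. Over these 9 comparisons, a single value, that of Acaca on DR in Ercc1Δ/− mice, had an unadjusted p under 0.05 in edgeR.

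The first comparison asks what the repair defect changes at 6 weeks, where 1.70% of all tested genes were called. All 10 genes lay above 0 there (median log2 difference 0.43, against 0.02 over all tested genes). Since the 10 genes rose and fell together, their signs are not separate observations. The log2 difference was 0.71 for Pnpla3 (standard error 0.62), 0.66 for Scd1, 0.62 for Mlxipl, 0.50 for Acly, 0.48 for Elovl6, 0.37 for Thrsp, 0.36 for Fasn, 0.25 for Me1, 0.24 for Acaca and 0.12 for Srebf1, and the smallest adjusted p was 0.511 (Mlxipl). At 22 weeks on AL, where 12.0% of all genes were called, Elovl6 had the greatest difference. It had 44.3, 48.3, 20.1 and 33.7 CPM in WT and 112, 17.3, 137 and 66.4 CPM in Ercc1Δ/− mice, a log2 difference of 1.29 (standard error 0.72, edgeR adjusted p = 0.288). Sample 013, with the lowest fat score, lay below all WT mice while the other 3 Ercc1Δ/− mice lay above them. Fasn (0.04, standard error 0.84) and Acaca (-0.02, standard error 0.56) were near 0 with wide errors. The other log2 differences were 0.67 for Scd1, 0.62 for Acly, 0.485 for Me1, 0.47 for Thrsp, 0.23 for Mlxipl, 0.10 for Srebf1 and -0.29 for Pnpla3. Between mice on DR, with 13.0% of all genes called, Scd1 (0.87, standard error 0.50) and Elovl6 (0.82, standard error 0.41) lay highest and Pnpla3 lowest (-0.64, standard error 0.51), with a smallest adjusted p of 0.227. Between them lay Mlxipl (0.28), Acly (0.25), Srebf1 (0.05), Me1 (0.03), Thrsp (-0.01), Fasn (-0.05) and Acaca (-0.06). The change with age called 0.235% of all genes in WT and 4.69% in Ercc1Δ/− mice, and none of the 10. In WT mice the log2 differences, 22 against 6 weeks, were 0.33 for Pnpla3, 0.24 for Scd1, 0.21 for Acly, 0.12 for Fasn, 0.105 for Me1, 0.10 for Srebf1, 0.09 for Acaca, 0.08 for Mlxipl, -0.29 for Thrsp and -0.33 for Elovl6. In Ercc1Δ/− mice they were 0.47 for Elovl6, 0.34 for Me1, 0.33 for Acly, 0.25 for Scd1, 0.07 for Srebf1, -0.17 for Acaca, -0.19 for Thrsp, -0.20 for Fasn, -0.32 for Mlxipl and -0.67 for Pnpla3.

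The DR comparison sets mice on restricted food against mice with unlimited access to it. Per the paper, the light schedule was shifted so that feeding fell just before the dark period. The time between the last meal and sampling was not given. Amount and timing of food therefore cannot be told apart here. In WT mice, where 1.28% of all genes were called, the smallest adjusted p was 0.539. The log2 difference was 0.75 for Elovl6 (standard error 0.45), 0.73 for Thrsp, 0.43 for Fasn, 0.42 for Mlxipl, 0.38 for Acly, 0.365 for Acaca, 0.26 for Me1, 0.16 for Scd1, -0.04 for Srebf1 and -0.075 for Pnpla3. In Ercc1Δ/− mice, where 1.64% were called, all 10 lay above 0 with a median of 0.70, against 0 over all tested genes. Because the 10 genes rose and fell together, their shared sign is not 10 separate observations. Scd1 had 2815, 588, 4210 and 1781 CPM on AL and 3744, 5586, 5631, 1708 and 3814 CPM on DR, a log2 difference of 1.14 (standard error 0.54, edgeR adjusted p = 0.345). Sample 016, whose fat score was the lowest of its group at 4.68, lay within the AL range, and the other 4 mice on DR lay above 3 of the 4 AL mice. Fasn had a difference of 0.98 (standard error 0.49), Elovl6 0.82 (0.46), Acaca 0.79 (0.36), Thrsp 0.71 (0.48) and Mlxipl 0.69 (0.33). Acly (0.365), Pnpla3 (0.32) and Me1 (0.13) had smaller differences, and Srebf1 was at 0.00 (0.12). The edgeR adjusted p-values were 0.333 or more, so none of these differences was called. The genotype by diet interaction, called for 0.0971% of all genes, and the genotype by age interaction, called for 0.842%, had smallest adjusted p-values of 0.793 and 0.758 among the 10 genes. The log2 differences of the first ran from -0.13 (Me1) to 0.98 (Scd1) and those of the second from -1.004 (Pnpla3) to 0.80 (Elovl6). Between males and females (0.186% of all genes called) 9 of the 10 genes lay below 0 in males (from -0.57 for Elovl6 to 0.07 for Pnpla3), none was called, none had an unadjusted p under 0.05 and DESeq2 called none. The median over all tested genes was 0 there, and these signs, too, are not separate observations.

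Adding the fat score to the model took away much of the spread, and with it the standard error of the DR difference in Ercc1Δ/− mice shrank from 0.49 to 0.22 for Fasn and from 0.46 to 0.14 for Elovl6. The calls below come from that model, and each of them was lost under at least 1 other setting. Fat markers named with these calls are themselves part of the score. Their differences in that model are relative to the mean of the 19 markers, so a fall in some tends to go with a rise in others.

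Elovl6 was higher on DR in WT mice by 0.61 (standard error 0.13, edgeR adjusted p = 0.00985, 0.00179 to 0.408 over the other settings of this model), and it was the only one of the 10 genes called there, where 0.874% of all genes were higher. It had 25.5, 194, 35.7, 38.6 and 129 CPM on DR, against the AL values given above. The 2 mice with the highest values, samples 017 and 021, also had the highest fat scores of the group, 6.64 and 6.12, while the other 3 mice lay within the AL range in CPM at fat scores of 4.42 to 4.96. In CPM the groups therefore overlapped, and the difference appeared against the line on the fat score, from which the DR mice deviated by 0.12 to 0.45 and the AL mice by -0.77 to 0.25. In the same fit the fat markers Lep (-3.455) and Trarg1 (-0.96) were lower and Cidea (0.61) higher on DR, and 1 of 11 macrophage markers was lower (C1qb, -0.65), and their part in the result was not tested.

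In Ercc1Δ/− mice Acaca (0.60, standard error 0.12, edgeR adjusted p = 0.0103), Elovl6 (0.60, standard error 0.14, adjusted p = 0.0208) and Mlxipl (0.55, standard error 0.14, adjusted p = 0.0447) were higher on DR, where 0.963% of all genes were higher. Over the other settings of this model their adjusted p-values ran from 0.00146 to 0.277, 0.00523 to 0.413 and 0.00757 to 0.259. Scd1 (0.84, standard error 0.20, adjusted p = 0.0527) and Fasn (0.75, standard error 0.22, adjusted p = 0.098) were not called, although DESeq2 called both. Acaca had 191, 80.5, 245 and 149 CPM on AL and 196, 354, 326, 135 and 278 CPM on DR. Set against the line on the fat score, the AL mice deviated by -0.49 to -0.08 on the log2 scale and the DR mice by -0.21 to 0.33. Without sample 004, the AL mouse with the highest fat score of its group (6.39), none of the 3 was called by edgeR (Acaca 0.53, adjusted p = 0.0806, Elovl6 0.52, adjusted p = 0.138, Mlxipl 0.42, adjusted p = 0.259). Without sample 026 Elovl6 was not called either (0.63, edgeR adjusted p = 0.0564), and Mlxipl was lost without any of 11 of the 18 samples in the fit, with edgeR adjusted p-values of 0.051 to 0.259. The genotype by diet interaction with the fat score called none of the 10 genes by either tool, with no unadjusted p under 0.05 (0.162% of all genes called), so a difference in the response to DR between genotypes was not shown. In the same fit 5 of 11 macrophage markers were lower on DR (summed markers from 674 to 1264 CPM on AL and 494 to 1350 CPM on DR), 2 of 10 smooth muscle markers were higher, and of the fat markers Plin4 was higher (0.65) and Trarg1 lower (-1.07). Their part in the result was not tested. Without the 5 fat markers that differed between groups or by sex, the score left 1 of the 3 genes called on DR in Ercc1Δ/− mice, Acaca, and none in WT mice.

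Between genotypes, Elovl6 was higher in Ercc1Δ/− than in WT mice on DR by 0.55 (standard error 0.13, edgeR adjusted p = 0.00346, 3.36e-05 to 0.605 over the other settings), where 6.24% of all genes were higher. It had 121, 169, 134, 56.9 and 120 CPM in the Ercc1Δ/− mice, within the range of the WT mice (25.5 to 194 CPM), and all 5 Ercc1Δ/− mice deviated upward from the line on the fat score, by 0.47 to 1.22 against 0.12 to 0.45 in WT. In the same fit 7 of 11 macrophage markers were higher and 9 of 10 smooth muscle markers lower, and 4 of 10 endothelial markers were higher (Cldn5 0.98, Pecam1 0.74, Tie1 0.60 and Cdh5 0.59), with sums of 531 to 1073 CPM in WT and 1004 to 1666 CPM in Ercc1Δ/− mice. Of the fat markers Dio2 (0.96) and Fabp4 (0.555) were higher and Trarg1 (-1.31) and P2rx5 (-0.75) lower, and the brown fat markers summed to 180 to 1149 CPM in WT and 449 to 1516 CPM in Ercc1Δ/− mice. Of 10 fibroblast markers 1 was higher and 1 lower. Their part in the result was not tested. With only brown fat markers in the score Elovl6 was not called, and Acaca and Pnpla3 were, both lower.

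Mlxipl was higher in Ercc1Δ/− mice at 6 weeks by 0.56 (standard error 0.13, edgeR adjusted p = 0.0192, 0.00457 to 0.143 over the other settings), where 1.18% of all genes were higher. It had 46.8, 61.4, 28.5, 55.3 and 60.5 CPM in WT and 85.8, 48, 31, 76.2 and 154 CPM in Ercc1Δ/− mice. The 2 Ercc1Δ/− mice inside the WT range were those with the lowest fat scores, 4.81 and 4.6. The call was lost without sample 027 (0.49, edgeR adjusted p = 0.143) and without sample 008 (0.53, edgeR adjusted p = 0.0535). In the same fit 2 of 11 macrophage markers were higher and 5 of 10 smooth muscle markers lower, and their part in the result was not tested.

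Pnpla3 was lower in Ercc1Δ/− mice at 22 weeks on AL by 1.34 on the log2 scale (log2 difference -1.34, standard error 0.36, edgeR adjusted p = 0.0132, 0.00344 to 0.221 over the other settings), where 6.20% of all genes were lower. It had 13.1, 9.95, 6.57 and 10.4 CPM in WT and 5.95, 0.752, 7.78 and 8.72 CPM in Ercc1Δ/− mice, so that 2 of the Ercc1Δ/− mice lay above the lowest WT mouse. The lowest value, 0.752 CPM in sample 013, rests on 1 count. The call was lost without sample 018 (-0.63, edgeR adjusted p = 0.221), sample 004 (-1.16, adjusted p = 0.0555) or sample 013 (-1.27, adjusted p = 0.0508). Sample 018 was the only female in the WT group of this comparison. In the same fit 8 of 11 macrophage markers were higher (320 to 462 CPM summed in WT and 674 to 1264 CPM in Ercc1Δ/− mice) and 8 of 10 smooth muscle and 3 of 10 fibroblast markers lower, and 1 of 10 endothelial markers was higher. Of 12 white fat markers 2 were higher (Cidec 0.56 and Fabp4 0.66) and 4 lower, among them Lep (-3.29) and Trarg1 (-1.10), and of 7 brown fat markers Ucp1 (1.72) and Dio2 (1.09) were higher and P2rx5 lower (-0.485). The brown fat markers summed to 257 to 400 CPM in WT and 339 to 1614 CPM in Ercc1Δ/− mice, and with only white fat markers in the score Pnpla3 was not called. The part of these markers in the result was not tested. No gene of the 10 was called with age in WT (0.461% of all genes called) or in Ercc1Δ/− mice (5.88%), and none by DESeq2. For the genotype by age interaction edgeR called none (0.996%) and DESeq2 called Pnpla3. By sex edgeR and DESeq2 called none with the fat score in the model (0.194%). In edgeR 2 of the 10 genes had an unadjusted p under 0.05 with age in WT, beside 1215 of all 12353 tested genes. With age in Ercc1Δ/− mice it was 2, beside 2327 of all genes. For the genotype by age interaction it was 2, beside 1406, and by sex 1, beside 964.

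**Figure D4:**
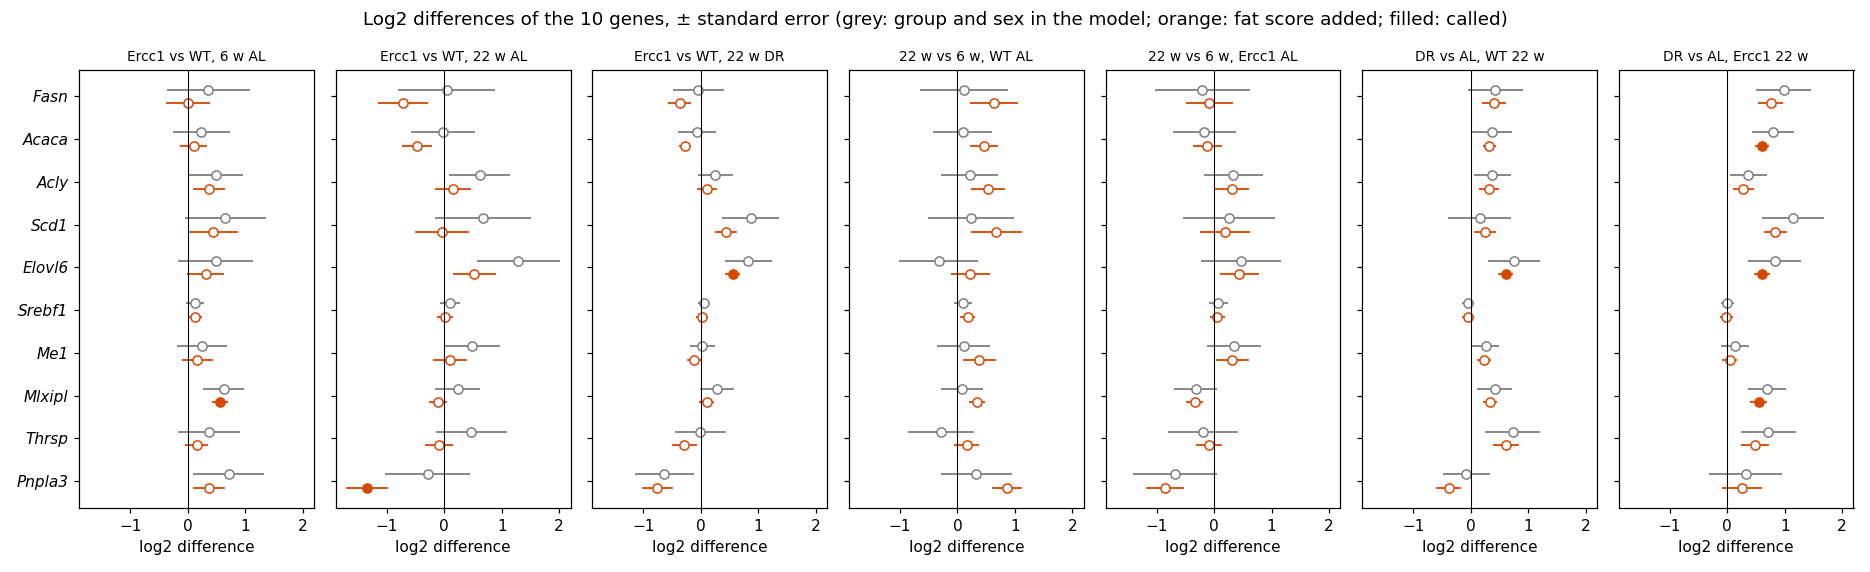
Log2 difference of each gene with its standard error in the 7 comparisons of 2 groups, in grey with group and sex in the model and in orange with the fat score added, filled where called. No grey point is filled, and the 7 filled orange points are Mlxipl at 6 weeks, Pnpla3 at 22 weeks, Elovl6 on DR between genotypes and in WT, and Acaca, Elovl6 and Mlxipl on DR in Ercc1Δ/− mice.

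The fat score did not account for all of the spread. In samples 024 and 011, the 2 female WT mice of 6 weeks, all 10 genes lay below the line on the fat score, with mean deviations of -1.14 and -1.02 on the log2 scale. In sample 024 Scd1 deviated by -2.52, at 316 CPM with a fat score of 5.45, whereas sample 001 of the same group had 1820 CPM at a score of 5.63. Sample 001 in turn had Schwann cell markers that summed to 1684 CPM, against 261 to 337 CPM in the other 27 samples, while its 10 genes deviated by a mean of 0.14. On DR, the mean deviation of the 10 genes was above 0 in all 5 WT and all 5 Ercc1Δ/− mice, from 0.02 to 0.53, and on AL at 22 weeks it ran from -0.27 to 0.43. In the other samples of 6 weeks it ran from -0.47 to 0.23. The line leaves out group and sex, and samples 024 and 011 pull it down, so 0 is not a neutral reference.

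**Figure D5:**
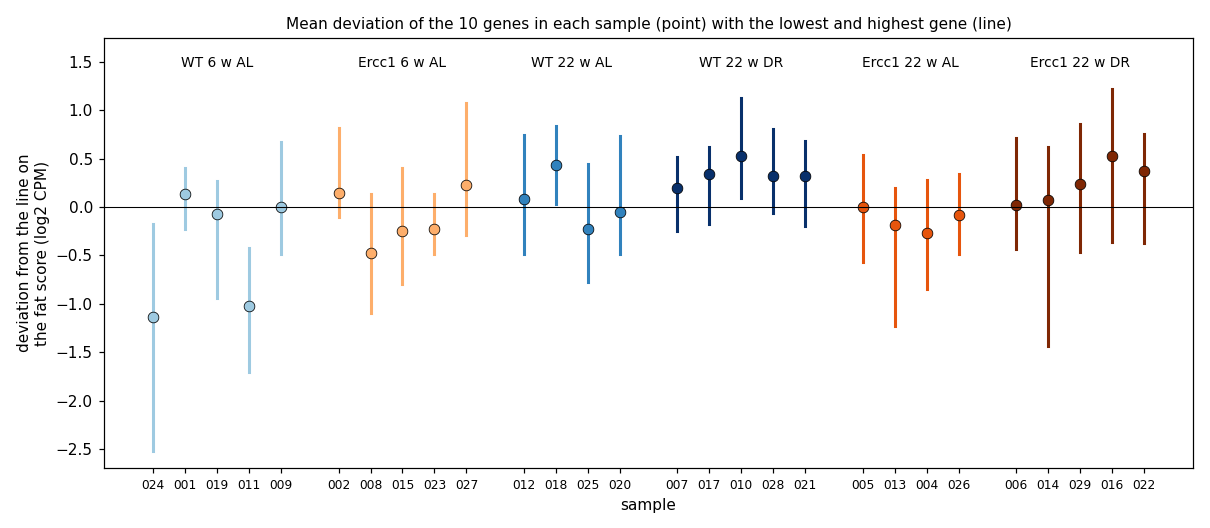
Mean deviation of the 10 genes from their lines on the fat score in each sample, in log2 CPM, with the lowest and highest gene as the ends of the bar. Samples 024 and 011 lie lowest (-1.14 and -1.02), and the 10 samples on DR lie between 0.02 and 0.53.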

How the data were processed

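mRNA of mouse aortic arches was sequenced, 1 mouse per sample. Per the labels and methods, the authors aligned reads to GRCm39 with STAR 2.7.10a, removed duplicates by molecular identifiers (UMI-tools 1.1.2) and counted reads over gene bodies with HTSeq 2.0.2, and they deposited the raw counts per gene used here. The strand setting of the counting was not given in the sources used here. Summary lines of HTSeq were left out. Reads on those lines, which include ambiguous ones, made up 12.6% to 18.7% of a sample. All sample columns were used except 003.

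A gene was kept if its count exceeded 10 in over 10 of the 28 samples, which left 12353 genes. edgeR 4.0.16 in R 4.3.3 fitted group and sex by its quasi-likelihood test, with TMM scaling, on the 18 AL samples for genotype and age, the 18 samples of 22 weeks for DR, and all 28 for sex and the slope on the fat score. CPM on the log2 scale used a prior count of 2. A slope or interaction was called at an adjusted p no higher than 0.05 without a fold limit. The p-values measure the spread between single mice. Standard errors given with edgeR values are the absolute log2 difference or slope divided by the square root of the F statistic of its test. The scripts were run on simulated counts that gave every gene the same variability between samples. That run therefore does not show how well differences in genes as variable as these would be found. DESeq2 1.42.0, other scalings, filters, scores and sample sets were the alternatives. Fat scores were compared in exact permutation tests with SciPy 1.17.1.

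By rule, all 10 genes are named in every comparison (interactions, sex and the model with the fat score are given by ranges, counts and called genes, with all 10 plotted for pairs of groups), of other lists up to 4 genes with the smallest p, and the 5 genes most correlated with Fasn or with the mean of the 10. The genes and lists were chosen with earlier results of these data known.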

Additional observations from a re-analysis of the deposited data

Results flagged for a closer look

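Within each group of 4 or 5 samples, the gap between the most extreme sample and its nearest neighbour was compared with the range of the group for the 10 genes and the fat score. Of 66 such sets 4 held a sample farther out than the 95% limit of Dixon's test, and chance alone puts about 1 set in 20 there. Sample 027 was the highest Ercc1Δ/− mouse of 6 weeks for Acaca (500 CPM, next 201 CPM) and for Fasn (5690 CPM, next 1888 CPM), and it had the highest fat score of all samples (6.7). Sample 017 was the highest WT mouse on DR for Srebf1 (132 CPM, next 94.2 CPM), at a fat score of 6.64. Sample 016 had the lowest fat score of the Ercc1Δ/− mice on DR (4.68, next 5.77).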

How the results depend on the processing

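Without the fat score, none of the 10 genes was called in any comparison under any alternative other than adding the score, which gave 3 genes for DR in Ercc1Δ/− mice and 1 each for DR in WT, genotype at 6 weeks, genotype at 22 weeks and genotype on DR. All 10 slopes on the fat score were called except over WT samples (5), over females (5) and, within 1.5 times of 10, over the AL, DR and 6-week samples; leaving out 1 sample gave 9 to 10. The subsets, and all alternatives to the model with the fat score, were chosen after seeing the data.

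With the fat score, DR in Ercc1Δ/− mice had 3 called genes, against 5 by DESeq2, 5 with only the compared groups, 1 without the fat markers that differed between groups, and 0 with all 6 groups or brown markers only. DR in WT had 1, against 0 with all 6 groups, brown markers only, the differing markers left out, no sex term, or counts thinned to 921167 per sample. Genotype at 22 weeks had 1, against 3 with only the compared groups and 0 with white markers only. Genotype at 6 weeks had 1, against 0 with brown markers only or thinned counts. Genotype on DR had 1, against 0 with all 6 groups, no sex term or thinned counts, and 2 with brown markers only, white markers only, the differing markers left out, or only the compared groups. The genotype by age interaction had 0, against 1 by DESeq2, with all 6 groups or with no sex term. Apart from the smaller number of samples or reads in some of these, the cause was not tested. Leaving out 1 sample gave 0 to 4 genes for DR in Ercc1Δ/− mice, 1 to 2 for DR in WT, 0 to 1 at 22 weeks, 0 to 1 at 6 weeks, 0 to 1 for the genotype by age interaction and 1 to 2 for genotype on DR. Other size factors and no count filter were not run with the fat score.

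Of 5610 values of single genes under an alternative, 4934 were uncalled in both fits and 356 of these changed sign. Pnpla3, with as few as 1 count in a sample, is the gene most limited by depth. No paired analysis was possible because each mouse gave 1 sample and no sample number is shared between groups.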

Other observations

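At 22 weeks on AL, where none of the 10 genes was called without the fat score and 12.0% of all tested genes were (726 higher and 761 lower), several lists of neighbouring lipid genes held calls. Of 7 tested LXR targets outside fatty acid synthesis 4 were higher in Ercc1Δ/− mice, namely the cholesterol exporter genes Abcg1 (log2 difference 2.15, standard error 0.27, edgeR adjusted p = 1.96e-05) and Abca1 (0.84, standard error 0.16, edgeR adjusted p = 0.00121), Apoe (0.67) and Mylip (0.71). Of 21 regulators Nr1h3, which encodes LXR alpha, was higher (0.72) and Mbtps1 lower (-0.34). Of 14 other elongases and desaturases Elovl3 (4.18, standard error 0.96, edgeR adjusted p = 0.0119), Scd2 (0.70) and Hacd2 (0.84) were higher and Hacd1 lower (-0.66). Of 10 genes of lipolysis and droplets 4 were higher (Plin2 1.67, Lipa 0.66, Abhd5 0.64 and Bscl2 0.59), of 12 of fatty acid uptake 2 (Lpl 1.97 and Ppargc1a 1.57), of 12 of triglyceride synthesis 2 (Lpin3 0.85 and Gpat4 0.47), of 12 other carboxylase, synthase and loading enzymes 2 (Acsl5 1.09 and Mlycd 0.59) and of 10 of NADPH supply 2 (G6pdx 0.71 and Idh1 0.54). Of 19 insulin and AMPK genes 3 were lower (Prkab2 -0.89, Rptor -0.49 and Prkag2 -0.48). In the same fit 8 of 11 macrophage markers were higher, with summed levels of 320 to 462 CPM in WT and 674 to 1264 CPM in Ercc1Δ/− mice. Smooth muscle markers summed to 34546 to 40793 CPM in WT and 18018 to 27677 CPM in Ercc1Δ/− mice, and the cardiac marker Tnnt2 was higher (1.96). Brown fat markers summed to 257 to 400 CPM in WT and 339 to 1614 CPM in Ercc1Δ/− mice. Of the fat markers Dio2 was higher (1.14) and Plin4 (-0.48) and P2rx5 (-0.525) lower. Elovl3, Lpl and Plin2 rose with the fat score (slopes 1.70, 1.00 and 0.90). The part of these markers in the values above was not tested.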
